A study of Mus musculus with 6 samples.

Results

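The 10 genes described here are the mouse growth factor gene Igf1, its binding protein gene Igfbp4, the receptor genes Igf1r, Insr and Igf2r, the adaptor genes Irs1 and Irs2, the transcription factor genes Foxo1 and Foxo3, and the ubiquitin ligase gene Fbxo32. They were taken by gene name from a table of 55401 genes, and each name matched a single row. They were chosen with results of the same comparison known, so their differences between the groups are given as a description, without p-values. RNA was sequenced from bone marrow-derived macrophages (BMDM), which are macrophages grown from marrow cells, in this case with the macrophage growth factor M-CSF. All 6 libraries were M-CSF induced: 3 have the genotype Lamtor5 knockdown and 3 are WT. Lamtor5, also known as HBXIP, belongs to Ragulator, the lysosomal scaffold through which amino acids activate mTORC1. The study's design names the mutant mice HBXIPΔLysM, and the LysM promoter is commonly used to drive Cre recombinase in myeloid cells. Age, sex and strain, and whether the libraries of a group come from separate mice or cultures, are not given in the labels, so p-values below reflect variation among these libraries only, and that variation may be technical.

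Insulin and insulin-like growth factor 1 (IGF1) bind receptor tyrosine kinases that phosphorylate the adaptors IRS1 and IRS2, which recruit PI3K and thereby activate Akt. Akt phosphorylates the FoxO transcription factors and keeps them out of the nucleus, and it also feeds into mTORC1; when insulin or IGF1 signalling is low, FoxO factors enter the nucleus and transcribe genes of stress resistance, autophagy, cell cycle arrest and protein breakdown. IRS2 and the ligase atrogin-1, the product of Fbxo32, are among the products of known FoxO target genes. Macrophages are a known source of IGF1 in tissue repair.

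The start regions of the adaptor and receptor genes are shown because the sequence elements of the FoxO and lysosomal programmes can be seen in them. RefSeq promoter windows of GRCm38.p6 were at hand for 8 of the 10 genes (all but Insr and Fbxo32). Of these, the 250 bases upstream of the start site are printed for Irs2 (chr8:11008930-11009179, minus strand), Irs1 (chr1:82291440-82291689, minus strand) and Igf2r (chr17:12769707-12769956, minus strand), 5′ to 3′ on the gene's strand, with motif matches in capitals.
Irs2: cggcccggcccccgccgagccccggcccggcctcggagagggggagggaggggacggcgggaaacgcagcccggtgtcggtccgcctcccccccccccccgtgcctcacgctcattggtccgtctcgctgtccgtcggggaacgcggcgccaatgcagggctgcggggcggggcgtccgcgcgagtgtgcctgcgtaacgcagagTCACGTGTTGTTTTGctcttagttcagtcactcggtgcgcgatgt
Irs1: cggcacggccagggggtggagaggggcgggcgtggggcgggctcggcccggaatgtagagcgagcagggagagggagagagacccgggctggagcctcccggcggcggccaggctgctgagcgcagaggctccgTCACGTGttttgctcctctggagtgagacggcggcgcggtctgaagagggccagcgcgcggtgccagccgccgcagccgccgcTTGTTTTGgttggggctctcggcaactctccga
Igf2r: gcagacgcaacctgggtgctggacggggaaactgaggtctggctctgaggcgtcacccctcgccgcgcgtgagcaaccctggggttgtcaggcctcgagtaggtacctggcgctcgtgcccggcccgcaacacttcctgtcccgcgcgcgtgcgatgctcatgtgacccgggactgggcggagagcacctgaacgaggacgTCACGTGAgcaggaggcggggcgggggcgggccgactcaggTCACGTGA
The insulin response element CAAAACAA, a FoxO-type element, was found on the strand opposite to the gene (as TTGTTTTG) in Irs2, from 38 to 31 bases upstream of the start site, and in Irs1, from 33 to 26 bases upstream. The E-box TCACGTG, the core of the CLEAR element that TFEB-type factors bind, lay directly before it in Irs2, from 45 to 39 bases upstream, so that both matches form a single run of capitals. In Irs1 the same E-box began 116 bases upstream, and in Igf2r it was matched on both strands at each of 2 places, which begin 49 and 8 bases upstream. Both places in Igf2r hold the palindrome TCACGTGA, which was matched in no other of the 8 windows. Over all 32851 windows of 300 bases, searched on both strands, CAAAACAA was present in 2.51%, TCACGTG in 3.77% and TCACGTGA in 0.974%; the last contains TCACGTG. The FoxO element GTAAACA was present in 3.65% of all windows and in 0 of the 8. These matches describe letters, and no binding was measured. Their positions count from the RefSeq start sites. Those sites lie upstream of the gene starts given with the expression values, by 471 bases for Irs2, 23 for Irs1 and 42 for Igf2r.

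Between 25.7 and 27.8 M (1e6) read pairs per library were kept after trimming, and the deposited estimated counts summed to 75.8 to 83.2 M per library. The targeted gene Lamtor5 was at 25.5, 27.1 and 24.8 FPKM (fragments per kilobase of transcript per M fragments, the authors' length-corrected unit) in knockdown replicates 1 to 3 and at 55.9, 54.5 and 56.2 FPKM in WT replicates 1 to 3. The knockdown mean was 46.5% of WT. Knockdown replicate 3 stood apart in having 73.6 FPKM of the lysozyme gene Lyz2, the gene at the LysM locus, against 11356 and 10650.0 FPKM in knockdown replicates 1 and 2 and 22454 to 29379 FPKM in WT. Of 7 macrophage genes, Csf1r, Adgre1, Itgam and Fcgr1 fell and Cd68 rose in the edgeR test. Over all tested genes 6.46% fell and 4.87% rose. C1qa was lower in every knockdown library (1.33 to 5.64 FPKM, against 7.79 to 17.5 in WT). Mertk was higher in every knockdown library (5.78 to 8.98 FPKM, against 1.87 to 5.09 in WT). Neither C1qa nor Mertk passed. Cd68 made up most of the summed level of the 7 genes (1628 to 1843 FPKM in the knockdown, 1568 to 1774 FPKM in WT). The other 6 genes summed to 272 to 355 FPKM in the knockdown and 597 to 837 FPKM in WT. Of 4 endothelial and 4 neutrophil markers, Kdr and Mpo passed and were higher. None passed as lower among these or the 3 mast cell or basophil markers. The endothelial markers Cdh5 (0.0594 to 0.0965 FPKM in the knockdown, 0.105 to 0.273 in WT) and Tek (0 to 0.0173 against 0.0253 to 0.0342) were lower in every knockdown library but did not pass. The mast cell marker Cpa3 was higher in every knockdown library and did not pass either. In such bulk samples, fewer cells of a type and less RNA per cell cannot be told apart. The part of these marker changes in the results below was not tested.

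The ligand gene and its binding protein gene were lower in the knockdown libraries, while Irs2 and Fbxo32 were higher. The receptor genes and Foxo3 had overlapping groups, and Foxo1 was slightly higher. In the edgeR fit over all genes, 4 of the 10 passed an adjusted p of 0.05, 2 higher (Irs2, Fbxo32) and 2 lower (Igf1, Igfbp4), where 11.3% of all 18164 tested genes passed (4.87% higher and 6.46% lower). The groups did not overlap in 5 of the 10, against 37.6% of all tested genes. All 10 passed the filter on low counts. Since these genes were picked from this comparison, nothing is read from these shares. With WT replicate 2 left out none of the 4 passed in edgeR, nor did any other gene of the table, although 5 of the 10 then had an unadjusted p under 0.05 and the log2 fold changes were -1.32 for Igf1 and 2.82 for Fbxo32; Igfbp4 also missed the threshold when any 1 of the knockdown libraries was left out.

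**Figure D1:**
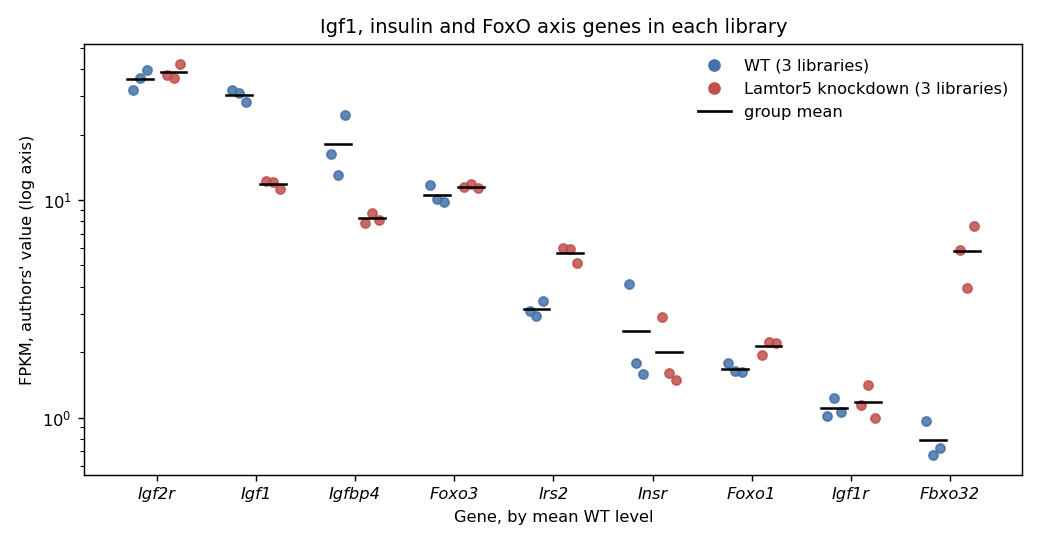
FPKM (log axis) of 9 of the 10 genes in each WT (blue) and Lamtor5 knockdown (red) library, ordered by mean WT level; bars mark group means, and Irs1, listed at 0 in 2 libraries, is left out. Igf1 and Igfbp4 lie lower in the knockdown, Irs2, Foxo1 and Fbxo32 higher, and the other 4 genes overlap.

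Igf1 (ENSMUSG00000020053, GRCm38 chromosome 10, 87858265 to 87937042, plus strand, 8 annotated transcripts) encodes the secreted growth factor. Its level was 12.2, 12.1 and 11.2 FPKM in knockdown replicates 1 to 3 and 32.1, 30.9 and 28.3 FPKM in WT replicates 1 to 3. The lowest WT library was thus more than 2 times the highest knockdown library, and the libraries within each group lay close together, with a coefficient of variation of 4.52% in the knockdown and 6.52% in WT. The mean fell from 30.4 ± 1.98 to 11.8 ± 0.536 FPKM (SD, n = 3), to 38.9% of WT, with an edgeR log2 fold change of -1.31 (SE 0.085) that ranged from -1.38 to -1.26 over the fits with 1 library left out. The antisense gene Igf1os overlaps Igf1, and its own level was at most 0.253 FPKM in any library, so reads assigned to it were few beside those of Igf1.

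Stromal cells can also express Igf1. The 7 fibroblast and stromal markers (Col1a1, Col1a2, Col3a1, Pdgfra, Dcn, Lum, Cxcl12) summed to 0.707, 5.36 and 3.04 FPKM in the knockdown libraries and to 2.60, 6.61 and 1.89 FPKM in WT, and none passed. The sum, carried mostly by Dcn and the collagen genes, overlapped between the groups. Pdgfra (0.0285 to 0.12 FPKM in the knockdown, 0.154 to 0.518 in WT) and Cxcl12 (0.0173 to 0.125 FPKM against 0.167 to 0.439) were lower in every knockdown library, as Igf1 was. In Col1a1, Col1a2, Col3a1, Dcn and Lum the groups overlapped, with log2 fold changes of -0.03, -0.7, 1.85, -0.23 and 0.02 in turn. The part of stromal cells in the Igf1 difference was not tested.

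Igfbp4 (ENSMUSG00000017493, chromosome 11, 99041244 to 99054392, plus strand, no overlapping gene) encodes a secreted protein that binds IGF1 and limits its access to the receptor. It was at 7.87, 8.76 and 8.06 FPKM in the knockdown and at 16.3, 13 and 24.7 FPKM in WT. Every WT library lay above every knockdown library, but WT varied widely, with a coefficient of variation of 33.4% against 5.72% in the knockdown. The knockdown mean was 45.6% of WT (8.23 ± 0.471 against 18.0 ± 6.03 FPKM, SD, n = 3), a log2 fold change of -1.08 (SE 0.22), and of -0.80 without WT replicate 3. The ratio of Igf1 to Igfbp4 FPKM was 1.44 ± 0.094 in the knockdown and 1.83 ± 0.626 in WT, and the groups overlapped (1.38 to 1.55 against 1.14 to 2.37). Ligand and binding protein transcripts were thus both lower, in proportions that could not be separated from the spread in WT.

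The 3 receptor genes had no separation between the groups. Igf1r (ENSMUSG00000005533, chromosome 7, 67952827 to 68233668, plus strand) encodes the tyrosine kinase receptor of IGF1 and was low, at 1.14, 1.41 and 1.0 FPKM in the knockdown and 1.02, 1.23 and 1.06 FPKM in WT. Its log2 fold change was 0.15 (SE 0.14). Igf2r (ENSMUSG00000023830, chromosome 17, 12682406 to 12769664, minus strand) encodes the cation-independent mannose 6-phosphate receptor, which carries hydrolases to the lysosome and takes up IGF2 for breakdown, and it does not signal through IRS proteins. It had the highest level of the 10 genes in both groups, with 37.4, 36.4 and 42.4 FPKM in the knockdown and 32.2, 36.3 and 39.5 FPKM in WT (log2 fold change 0.16, SE 0.10). The Igf2r level per length was 33.6 ± 8.31 times that of Igf1r in the knockdown and 32.8 ± 4.10 times in WT. The antisense gene Airn, which overlaps Igf2r, was at 0.431 FPKM or less.

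Insr (ENSMUSG00000005534, chromosome 8, 3122061 to 3279617, minus strand), the insulin receptor gene, was at 2.89, 1.60 and 1.49 FPKM in the knockdown and at 4.13, 1.78 and 1.58 FPKM in WT. Replicate 1 was the highest library in each group, and the remaining 4 libraries lay between 1.49 and 1.78 FPKM. The log2 fold change was -0.28 (SE 0.44), and it turned to 0.32 without WT replicate 1. With this spread the data fix no direction for Insr. Insr transcripts were more abundant per length than those of Igf1r in all 6 libraries: the ratio of Igf1r to Insr FPKM was 0.394, 0.882 and 0.674 in the knockdown and 0.247, 0.694 and 0.668 in WT.

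The adaptor genes differed from each other in level. Irs1 (ENSMUSG00000055980, chromosome 1, 82233101 to 82291416, minus strand) was nearly absent: its estimated counts were 0, 0 and 14 in the knockdown and 15, 39 and 6 in WT, and its mean WT level was 0.0226 FPKM. No fold is given for it. Irs2 (ENSMUSG00000038894, chromosome 8, 10984681 to 11008458, minus strand) was at 6.01, 5.98 and 5.15 FPKM in the knockdown and 3.10, 2.92 and 3.42 FPKM in WT. The knockdown libraries were all above the WT libraries, with a mean of 5.71 ± 0.491 against 3.14 ± 0.252 FPKM (SD, n = 3), which is 1.82-fold. The log2 fold change was 0.91 (SE 0.11), and 0.85 to 0.97 with 1 library left out. Per length, nearly all IRS adaptor transcripts in these macrophages were thus Irs2. The region printed above for Irs2 holds the E-box and insulin response element adjoining, and that of Irs1 holds the same elements apart. The part of these elements in the levels was not tested. A transcript on the opposite strand that overlaps the start of Irs2, 9530052E02Rik, was at 0.222 FPKM or less.

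Foxo1 (ENSMUSG00000044167, chromosome 3, 52268336 to 52353221, plus strand) was at 1.93, 2.23 and 2.21 FPKM in the knockdown and 1.78, 1.64 and 1.62 FPKM in WT. The groups did not overlap, but the difference was small, 2.12 ± 0.168 against 1.68 ± 0.085 FPKM (SD, n = 3), with a log2 fold change of 0.38 (SE 0.11), and it is not among the genes that passed. Foxo3 (ENSMUSG00000048756, chromosome 10, 42181841 to 42276752, minus strand) was the more abundant FoxO gene, at 11.5, 11.8 and 11.3 FPKM in the knockdown and 11.7, 10.1 and 9.81 FPKM in WT. Its groups overlapped (log2 fold change 0.17, SE 0.097). The ratio of Foxo3 to Foxo1 FPKM was 5.45 ± 0.435 in the knockdown and 6.27 ± 0.288 in WT (SD, n = 3). Transcript levels do not show where the FoxO proteins were in the cell or whether Akt had phosphorylated them, and neither was measured.

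Fbxo32 (ENSMUSG00000022358, chromosome 15, 58175879 to 58214932, minus strand, 9 exons) encodes atrogin-1, the substrate-binding part of an SCF ubiquitin ligase, known from muscle wasting. It was at 5.91, 3.93 and 7.62 FPKM in the knockdown and at 0.963, 0.671 and 0.722 FPKM in WT. The lowest knockdown library was thus about 4 times the highest WT library, and among the knockdown libraries replicate 2 was the lowest and replicate 3 the highest. The mean rose from 0.785 ± 0.156 to 5.82 ± 1.85 FPKM (SD, n = 3), 7.41-fold, with a log2 fold change of 2.94 (SE 0.30), 2.69 to 3.17 with 1 library left out. The muscle markers Myog and Myh4 were listed at 0 in every library, and the 5 muscle markers (Acta1, Ckm, Myog, Des, Myh4) summed to at most 0.236 FPKM. The part of muscle or of other cell types in the Fbxo32 difference was not tested.

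**Figure D2:**
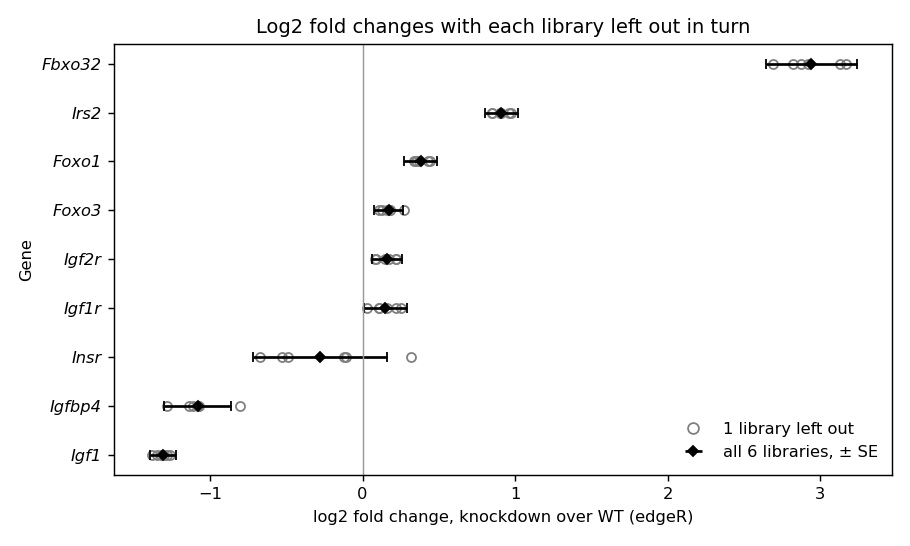
Log2 fold change of the knockdown over WT for 9 genes from edgeR with all 6 libraries (diamonds, bars ± SE) and with each library left out in turn (open circles). All genes but Insr keep their side of 0 in every fit, Igf1r coming as near as 0.03, and Insr crosses 0 without WT replicate 1.

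By level, the order of the 10 genes changed between the groups. In WT it ran Igf2r (36.0 FPKM), Igf1, Igfbp4, Foxo3, Irs2, Insr, Foxo1, Igf1r, Fbxo32 and Irs1. In WT the library ranges of Irs2 and Insr, and those of Insr and Foxo1, overlapped, and the other neighbours were apart. In the knockdown Igf2r (38.7 FPKM) was followed by Igf1 and Foxo3, whose ranges overlapped, then by Igfbp4, Fbxo32 and Irs2 (the last pair overlapping), Foxo1 and Insr (overlapping), Igf1r and Irs1. Igf1 thus stood at the level of Foxo3 in the knockdown, while Fbxo32 moved from the ninth to the fifth place.

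Genes with the pattern closest to Igf1 and Fbxo32 were ranked by the root mean square difference over the 6 libraries of log2(FPKM + 1), each gene centred on its own mean, among genes of at least 5 FPKM. For Igf1 they were C3ar1 (0.12), the complement C3a receptor gene, Lamtor5 itself (0.13), Pstpip2 (0.15) and Fxyd2 (0.16). C3ar1 was at 38.3, 33.4 and 34.4 FPKM in the knockdown and 78.7, 81.4 and 68.5 FPKM in WT. The knockdown mean was 46.4% of WT for C3ar1 and 46.5% for Lamtor5, against 38.9% for Igf1. For Fbxo32 they were Rilpl1 (0.11), which encodes a relative of the Rab-interacting lysosomal protein, Gpr157 (0.15), Mreg (0.18), which encodes the melanosome transport protein melanoregulin, and S100a1 (0.18), which encodes a calcium-binding protein. Rilpl1 was at 11.4, 9.75 and 14.0 FPKM in the knockdown and 2.54, 2.22 and 2.02 FPKM in WT, again with replicate 3 highest and replicate 2 lowest within the knockdown. A shared pattern over 6 libraries in 2 groups is a description.

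**Figure D3:**
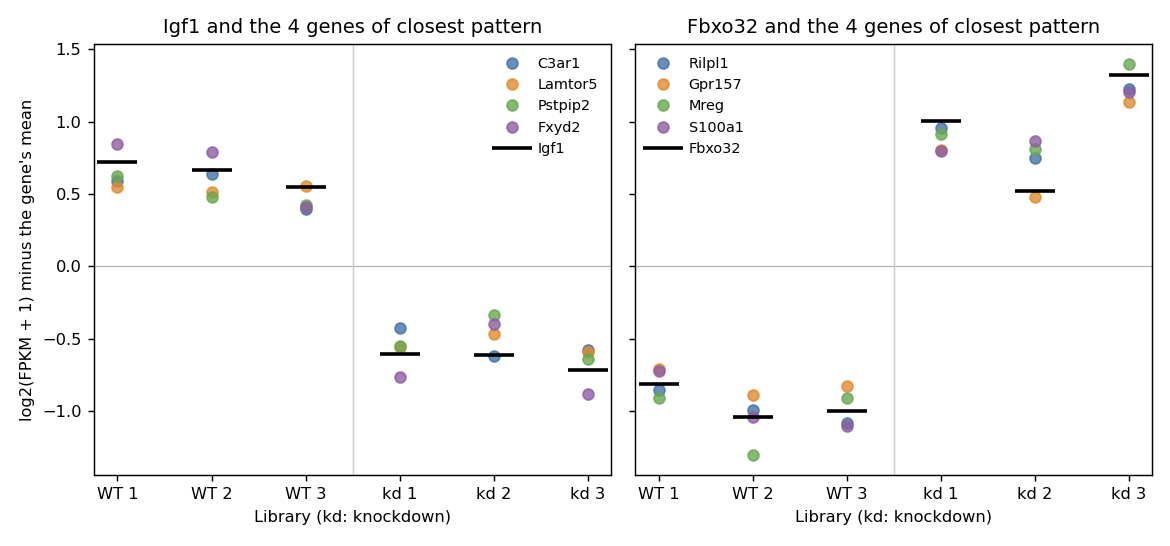
Centred log2(FPKM + 1) in each library for Igf1 and Fbxo32 (black bars) and the 4 genes of closest pattern to each (points); kd is knockdown. The 4 genes beside Igf1 are above 0 in WT and below 0 in the knockdown, and those beside Fbxo32 the reverse.

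The other genes of the pathway were taken from 5 lists by role, 125 genes in all, of which 110 were tested. Among those that passed, the PI3K genes Pik3cd and Pik3cg were lower, the FoxO kinase gene Sgk1 was higher, and FoxO target genes lay on both sides. In edgeR's quasi-likelihood test 20 passed a Benjamini-Hochberg adjusted p of 0.05, 10 higher and 10 lower (18.2%, beside 11.3% of all tested genes). The median log2 fold change was -0.08 over the lists and 0.02 over all tested genes. With single libraries left out the number that passed was 7, 9 and 6 for knockdown replicates 1 to 3, and 19, 0 and 7 for WT replicates 1 to 3 (34 had an unadjusted p under 0.05 in edgeR in the fit that gave 0). Of the genes named below, Il7r, Gadd45a, Gadd45b, Gabarapl1 and S1pr1 kept their calls without each library except WT replicate 2, Pde3b and Trib1 lost theirs whichever library was left out, and the others lost theirs in 4 or 5 of the 6 such fits.

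**Figure D4:**
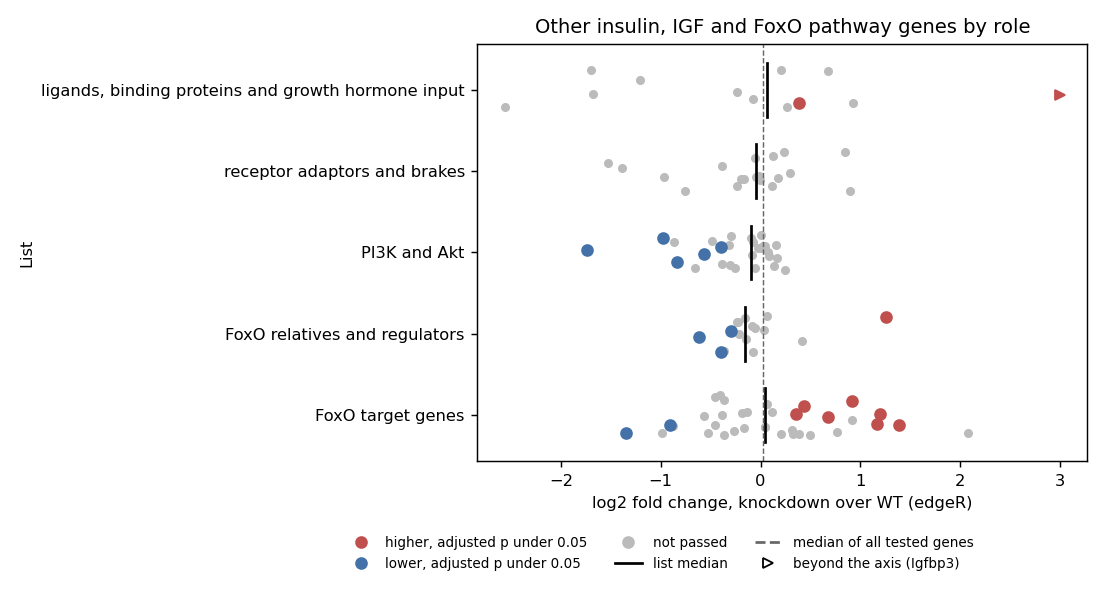
Log2 fold change, knockdown over WT (edgeR), of each tested gene in the 5 lists; red points passed and were higher, blue points passed and were lower, grey points did not pass. Black bars are list medians, the dashed line is the median of all tested genes (0.02), and Igfbp3 lies beyond the axis.

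Of 19 further ligand, binding protein and growth hormone genes 12 were tested. Of these, 2 rose and none fell (16.7%, beside 11.3% of all tested genes), and the median log2 fold change was 0.06. Ins1, Ins2 and Igfbp1 were listed at 0 in all 6 libraries, and Igf2 and Pappa, the gene of the protease that cleaves IGFBP4, were under the count filter (these 5 were named after their values were seen). Igf1 was therefore the only ligand gene of insulin type among these that passed the filter. Stat5b, which carries the growth hormone signal to the Igf1 gene in liver, was at 19.0, 19.3 and 17.9 FPKM in the knockdown and 16.2, 14.8 and 13.4 FPKM in WT, a log2 fold change of 0.39 (SE 0.096, adjusted p = 0.0474). Stat5b was thus slightly higher where Igf1 was lower, and its part in the Igf1 difference was not tested. Igfbp3, the main IGF carrier of serum, had estimated counts of 12, 25 and 29 in the knockdown and 0 in each WT library. Against a floor of 3 counts per library that is at least 7.33-fold higher, at a level of 0.102 FPKM or less. It passed the filter on low counts through the knockdown libraries alone, so its call supports nothing, and without it 1 gene of this list rose.

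Of 20 receptor adaptors and brakes, 19 were tested. None passed in edgeR at an adjusted p of 0.05, beside 11.3% of all tested genes. In edgeR 7 of the 19 had an unadjusted p under 0.05, beside 5484 of all 18164 tested genes. DESeq2 called 5 of the list, beside 3641 of 28119 genes. The median log2 fold change of the list was -0.05. Its most abundant gene was Grb2, which links receptors to Ras. Grb2 was at 80.0, 86.0 and 96.2 FPKM in the knockdown and at 44.7, 71.2 and 34.5 FPKM in WT. Its groups did not overlap, but WT was widely spread, and its log2 fold change of 0.85 (SE 0.25) had an adjusted p of 0.0713 in edgeR; with DESeq2 it was 0.00678.

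Of 28 PI3K and Akt genes, all of them tested, 5 fell and none rose, with a median log2 fold change of -0.10. Over all tested genes 6.46% fell and 4.87% rose, with a median of 0.02. Pik3cd, which encodes the leukocyte catalytic subunit p110 delta, was at 18.2, 14.6 and 12.3 FPKM in the knockdown and 28.6, 31.1 and 23.9 FPKM in WT (log2 fold change -0.84, SE 0.17, edgeR adjusted p = 0.0277). Pik3cg, the p110 gamma gene that acts behind G protein-coupled receptors, fell from 15.3 ± 1.56 to 9.93 ± 1.18 FPKM (SD, n = 3; -0.57, edgeR adjusted p = 0.0207). Pik3ap1, the gene of the PI3K adaptor BCAP of myeloid and B cells, fell from 40.4 ± 2.83 to 29.6 ± 0.508 FPKM (-0.40, edgeR adjusted p = 0.0217). In each of these 3 genes the groups did not overlap, as in 37.6% of all tested genes. Of other PI3K pathway genes of leukocytes, 2 that did not pass are given beside them: Pik3r5, a regulatory subunit gene of PI3K gamma, was at 52.6 to 64.5 FPKM in the knockdown and 49.1 to 50.2 FPKM in WT (0.25, edgeR adjusted p = 0.159), and the lipid phosphatase gene Inpp5d had a log2 fold change of -0.06 (both named after their values were seen). Pde3b, an insulin-responsive phosphodiesterase gene, and Trib1, a pseudokinase gene, also fell, by -0.98 and -1.74 on the log2 scale, at low levels of 0.363 and 1.80 FPKM in WT.

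Of 18 FoxO relatives and regulators, 16 were tested. Of these, 1 rose and 3 fell, where 4.87% of all tested genes rose and 6.46% fell. The median log2 fold change was -0.16, beside 0.02 over all tested genes. Sgk1 encodes a kinase related to Akt that is activated downstream of mTORC2 and phosphorylates FoxO factors. It was at 134, 107 and 171 FPKM in the knockdown and 74.8, 55.2 and 48.3 FPKM in WT, all knockdown libraries above all WT libraries (log2 fold change 1.26, SE 0.24, edgeR adjusted p = 0.0234). Its relative Sgk3 moved the other way, from 3.87 ± 0.399 to 2.43 ± 0.310 FPKM (SD, n = 3; -0.62, edgeR adjusted p = 0.0289). The acetyltransferase genes Ep300 and Crebbp, whose products acetylate FoxO factors among many other proteins, fell by -0.30 and -0.40 on the log2 scale (edgeR adjusted p = 0.0315 and 0.0298).

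Of 40 genes listed as FoxO targets, 35 were tested. Of these, 7 rose and 2 fell (25.7%, beside 11.3% of all tested genes), and the median log2 fold change was 0.04. Il7r, the interleukin-7 receptor gene, was at 68.0, 69.1 and 91.9 FPKM in the knockdown and 31.7, 34.7 and 36.8 FPKM in WT (log2 fold change 1.20, SE 0.14, edgeR adjusted p = 0.0104). The groups were well apart. T cells also express Il7r, and the T cell markers Cd3d, Cd3e and Cd3g summed to at most 0.0403 FPKM in any library, with Cd3g listed at 0 in all. The part of T cells or of other cell types in the Il7r difference was not tested. The growth arrest genes Gadd45a and Gadd45b rose from 7.05 ± 0.894 to 17.8 ± 2.76 FPKM and from 11.3 ± 0.947 to 24.6 ± 4.90 FPKM (SD, n = 3; log2 fold changes 1.39 and 1.17). Gabarapl1, which encodes an autophagosome protein, was at 103, 95.2 and 89.9 FPKM in the knockdown and 60.2, 49.4 and 47.7 FPKM in WT (0.92, SE 0.12, edgeR adjusted p = 0.0122). The triglyceride lipase gene Pnpla2 (0.68) and the mitochondrial peroxidase gene Prdx3 (0.36) rose less.

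The 2 FoxO target genes that fell are known from the same programme in lymphocytes. Klf2, a transcription factor gene, was at 23.5, 22.4 and 10.2 FPKM in the knockdown and 45.1, 51.0 and 51.7 FPKM in WT (log2 fold change -1.35, SE 0.29, edgeR adjusted p = 0.0326). Knockdown replicate 3 was the lowest, and Klf2 passed also without it, but lost its call in the 5 other fits that left 1 library out. S1pr1, the receptor gene through which lymphocytes leave tissues, was at 5.71, 5.69 and 4.44 FPKM in the knockdown and between 9.70 and 11.2 FPKM in WT (-0.91, SE 0.13, edgeR adjusted p = 0.0129). The other muscle ligase gene of the list, Trim63, and the fasting genes Pdk4, G6pc and Pck1 were under the count filter (named after their values were seen). Some listed stress genes that did not pass had lower values in every knockdown library, such as Ddit4 (-0.99, edgeR adjusted p = 0.0809), Sesn1 (-0.53, 0.0598) and Txnip (-0.46, 0.0870), and the autophagy gene Map1lc3b (0.39, 0.0706) did not pass either (these 4 also named after their values were seen). The FoxO target list thus held genes that rose, genes that fell and 26 tested genes that did not pass, Fbxo32 and Irs2 not being counted in it.

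**Figure D5:**
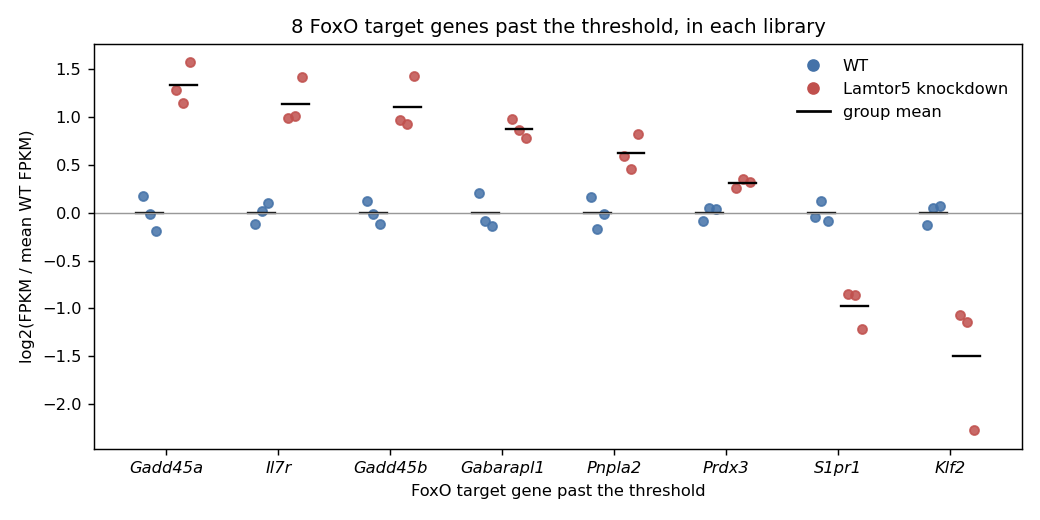
Log2 of FPKM over the mean WT FPKM in each WT (blue) and knockdown (red) library for 8 of the 9 FoxO target genes that passed, bars at the group means. Gadd45a, Il7r, Gadd45b, Gabarapl1, Pnpla2 and Prdx3 are higher in the knockdown, S1pr1 and Klf2 lower, and no group overlaps another.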

How the data were processed

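The trimming logs name cutadapt 1.9 (paired-end mode, overlap of 5 bases, minimum length of 100), per the file headers. GRCm38 (mm10) is the build per the submitters' processing notes. The aligner, counter and strand setting are not given in these sources, so reads of overlapping antisense genes cannot be told apart. The authors deposited FPKM values and whole-number columns that are estimated counts, since they sum to 2.95 to 3.01 per read pair kept; no interval was made from them. An FPKM of 0.0001 stands for a count of 0 and is written here as 0. For 120 names with more than 1 identifier the one with the most counts was used.

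The estimated counts were tested with edgeR 4.0.16 (R 4.3.3): filterByExpr with a minimum count of 10, TMM scaling, quasi-likelihood test of knockdown against WT, and Benjamini-Hochberg adjustment over all 18164 genes tested, with a threshold of 0.05. The SE is the log2 fold change divided by the square root of F. The script was tested on simulated data. Alternatives were DESeq2 1.42.0, limma 3.58.1 on log2(FPKM + 1) or log2(FPKM + 0.1), other scalings and filters, counts divided by 3, a replicate block, and each library left out. 1 of the planned marker lists is not reported here. The members and lists were chosen with earlier results of these data known. The text names all 10 members, up to 8 called genes per list (the most abundant gene of a list with none), and the 4 closest patterns to Igf1 and Fbxo32.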

Additional observations from a re-analysis of the deposited data

How the results depend on the processing

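The 9 members other than Irs1 and the 20 named pathway genes kept the sign of their log2 fold change in each of the 14 alternatives that tested them, except Insr, which did not pass in any fit. The number of genes past the threshold, 2058, was 3641 with DESeq2, 1205 with no filter on low counts and 15 in limma with no FPKM filter; the number of pathway genes, 20, was 35, 11 and 0 under the same 3 settings (50 pathway genes had an unadjusted p under 0.05 in limma with no FPKM filter), and the number of members, 4, was 1 in limma with no FPKM filter. With 1 library left out, these ran from 0 to 2334 genes, from 0 to 19 pathway genes and from 0 to 4 members, in each case 0 without WT replicate 2. In that fit 4065 genes, 34 pathway genes and 5 members had an unadjusted p under 0.05 in edgeR. With the replicate number as a block, 728 genes, 7 pathway genes and 3 members passed; same-numbered libraries did not deviate together (r of 0.045, 0.0354 and -0.011 across genes), so the number is not taken to pair them. In limma on log2(FPKM + 1), where the pseudocount shrinks low genes, the log2 fold change of Fbxo32 was 1.9 and that of Irs2 0.70. Estimated counts exceed the reads, so the counting precision of low genes such as Irs1 and Igfbp3 is unknown.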

Other observations

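The pattern of Insr, with replicate 1 highest in each group, was looked at after its values were seen. By the same measure as for Igf1, the genes closest to it were Ypel5 (0.12), Cyp4f18 (0.13), Arl5c (0.17) and Abca1 (0.17). Ypel5 was at 8.90, 6.86 and 5.17 FPKM in the knockdown and 14.4, 6.04 and 5.63 FPKM in WT, and Abca1, the cholesterol efflux transporter gene, at 9.17, 7.75 and 6.35 FPKM in the knockdown and 14.6, 9.52 and 6.50 FPKM in WT. In both genes, as in Insr, WT replicate 1 was the highest of the 6 libraries.

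The binding protein gene Igfbp7 was at 0.501, 1.79 and 1.31 FPKM in the knockdown and 2.56, 6.93 and 2.59 FPKM in WT, and the receptor brake gene Grb10 at 0.0919, 0.153 and 0.0528 FPKM in the knockdown and 0.207, 0.463 and 0.215 FPKM in WT. In neither did the groups overlap, and neither passed in edgeR (adjusted p = 0.0979 and 0.0862). Both were highest in WT replicate 2, the library with the highest summed stromal markers (6.61 FPKM). Knockdown replicate 2 had the next highest sum (5.36 FPKM). There both genes were at their highest within the knockdown, and both were below every WT library. The part of stromal cells in these values was not tested. Both genes were picked after their values were seen.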
